A study of Mus musculus with 60 samples.

Results

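Transcript levels in cumulus nuclear transfer (NTC) 1-cell embryos were compared with those in cumulus cells (CCs), the donor cells from which these embryos were made. The comparison used the 3 NTC 1-cell libraries and the 3 CC libraries, 6 of the 60 libraries of the series, and covered every gene of the deposited expression table. Of 27238 genes, 12819 had a mean of at least 0.5 RPKM over the 6 libraries and were tested. RPKM, a read count scaled to exon length and to library size, is a level relative to the other transcripts of the same library. The question addressed is how far the transcripts of an activated egg that has received a somatic nucleus differ from those of the cell that gave the nucleus.

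The study sequenced single embryos from the pronuclear stage to the blastocyst, made by fertilisation in vivo, by NT of CC nuclei or by NT of mouse embryonic fibroblast (MEF) nuclei, together with both donor cell types. CCs were of BDF1 strain. They were freed with hyaluronidase from the cumulus-oocyte complexes of superovulated BDF1 females, and the same preparation served as donor cells. For NTC embryos, the spindle of a metaphase II oocyte from a BDF1 female was removed and a CC nucleus was injected with a Piezo-driven pipette. The reconstructed egg was activated in SrCl2 with cytochalasin B and Scriptaid, an inhibitor of histone deacetylases, and cultured to the pronuclear stage. The labels give no strain for the NTC samples, while the methods state BDF1 for both the oocyte and the nucleus. Each NTC library came from 1 embryo, chosen for its morphology, and the number of cells in each CC library was not stated. CCs received neither activation nor Scriptaid, so ooplasm, activation, drug and culture cannot be told apart in this comparison. For reference, in vivo 1-cell embryos came from superovulated C57BL/6 females mated with DBA2 males, and NTM 1-cell embryos received BDF1 MEF nuclei in the same way as NTC embryos, from serum-starved MEFs.

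An egg is loaded during its growth with transcripts that run meiosis, fertilisation and the first cell cycle, and transcription is silent at ovulation. CCs are the granulosa cells that stay around the egg; they feed it through gap junctions, exchange growth factors with it, and take up and convert glucose and cholesterol. A 1-cell NT embryo therefore holds the ooplasm of one cell type and the nucleus of its neighbour, before the main wave of embryonic transcription.

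The libraries differed in depth. CC libraries held 31558140 to 37369128 reads on genes and NTC 1-cell libraries held 10118230 to 15929076, reconstructed from the table. In spite of this, 14021 to 14270 genes were above 0 in NTC 1-cell embryos against 11326 to 12377 in CCs. Genes of the mitochondrial genome took 4.78 to 6.78% of the reads in NTC 1-cell embryos and 2.71 to 3.26% in CCs. In vivo 1-cell replicate 1 stood apart from its group, with 9491 genes above 0 and 13.4% mitochondrial reads. Embryos were collected in at least 3 independent experiments according to the labels. For CCs, nothing states that the replicates came from separate females, so the p-values measure the spread between these libraries. In bulk samples, fewer cells of a type and less RNA per cell cannot be told apart.

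Marker genes were read before the comparison. The summed level of 26 oocyte markers was 8986 to 9989 RPKM in NTC 1-cell embryos and 17.1 to 22.5 RPKM in CCs. The summed level of 24 cumulus and granulosa markers was 1709 to 2041 RPKM in CCs and 144 to 153 RPKM in NTC 1-cell embryos. Several genes used to define these cells were absent or near 0 in the libraries labelled CC: Foxl2, Gatm, Slc38a3, Nppc and Kitl, together with Has2, Areg and Cyp19a1. Leukocyte markers were low in the CC libraries, with Ptprc at 0.00518 RPKM or less, although CC replicate 3 showed Cd68 at 8.52 RPKM and Cd14 at 3.33 RPKM. The endothelial genes Kdr and Tek were likewise detected mainly in CC replicate 3, at 9.71 and 2.85 RPKM. Stroma and theca markers summed to 4.80 to 6.33 RPKM in CCs, and all 3 red cell genes in the table were listed at 0 there. Oviduct epithelium markers summed to 130 to 196 RPKM in CCs, all of it from the keratins Krt8 and Krt18, with the other 4 genes of that list at 0, and to 0 to 3.36 RPKM in NTC 1-cell embryos. CC replicates also differed in cell cycle genes. Aurkb was at 69.3 RPKM in replicate 1 and at 0.0537 and 0.0215 RPKM in the others, and Wee1 was at 126 against 2.41 and 3.56 RPKM. The part of these differences in the results was not tested.

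Low levels in CCs of transcripts that are abundant in other libraries bear on what can be read as absent. Among 17 oocyte markers at 100 RPKM or more in NTC 1-cell embryos, the median CC level was 0.0867%, 0.0642% and 0.0684% of the NTC 1-cell mean in the 3 CC libraries. The same genes stood at 0.0746% and 0.0932% in MEF replicates 1 and 2, and 1 of 17 was above 0 in MEF replicate 3. Conversely, 18 genes at 500 RPKM or more in MEFs and below 5 RPKM in CCs had a median CC level of 0.0590%, 0.0458% and 0.0509% of the MEF mean. These shares were of a like size, but the fibroblast genes were chosen for a low CC level, which fixed a small share for them in advance. The same 18 genes had a median of 0% of the MEF mean in every NTC, NTM and in vivo 1-cell library. How the reads in the donor cell libraries came to be there was not tested. A CC value near these shares of the NTC 1-cell value is not read here as expression in CCs.

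Of the 12819 genes tested with limma, 6411 (50.0%) were called, that is, differed at an adjusted p below 0.05 and by at least 1 on the log2(RPKM + 1) scale. Of these, 3750 (29.3% of genes tested) were higher and 2661 (20.8%) were lower in NTC 1-cell embryos. The counts of every gene list below are to be read beside these shares. The groups did not overlap for 7876 genes (61.4%), of which 4567 (35.6%) were higher and 3309 (25.8%) lower in every NTC 1-cell library. Of the marker lists of other cell types, 1 of 3 immune genes tested was higher and 0 lower, 1 of 4 endothelial genes was higher and 1 lower, and both tested epithelial keratins were lower. Both tested stroma genes, Col1a1 and Dcn, were lower too, from CC levels of 0.0466% and 0.063% of the MEF mean that lie in the range of the traces above. The 2 genes tested on the list for the X and Y chromosomes, Xist and Ftx, were not called (0 at an unadjusted p below 0.05). In CCs the 8 genes of that list summed to 0.212, 3.53 and 8.08 RPKM in replicates 1, 2 and 3. Xist was thus at 0.212 RPKM or less in CC replicate 1, while the CCs came from females. Only Kdm5d and Tsix were listed at 0 in every CC library, so the Y genes Ddx3y, Eif2s3y and Uty had some reads. The source of these reads was not tested. Many differences were large: at least a 16-fold difference was fitted for 922 higher and 666 lower genes, and at least a 256-fold difference for 56 higher and 26 lower genes. The levels shared few top transcripts: 421 genes reached 100 RPKM in all 3 NTC 1-cell libraries and 328 in all 3 CC libraries, and 55 did so in both. A further 639 genes were at 1 RPKM or more in every NTC 1-cell library and listed at 0 in every CC library, and 207 genes showed the reverse. For 169 genes (1.32%) the whole 95% interval lay between -1 and 1.

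The median difference over all genes tested was 0.16 on the log2 scale and 0.57 without CC replicate 3. It was 0.74 when RPKM was rescaled to TPM, which makes the values of every library sum to the same total, and 0.29 when mitochondrial genes were left out, so all differences here are relative to the library as a whole. Leaving out the 1615 genes whose CC mean was above 0 and under 0.5% of the highest group mean of the series gave 4637 calls, 2103 higher and 2534 lower, and the share of higher calls went from 58.5% to 45.4%. That set was defined after the data had been seen, and it removes genes that are high in embryos by its construction.

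**Figure D1:**
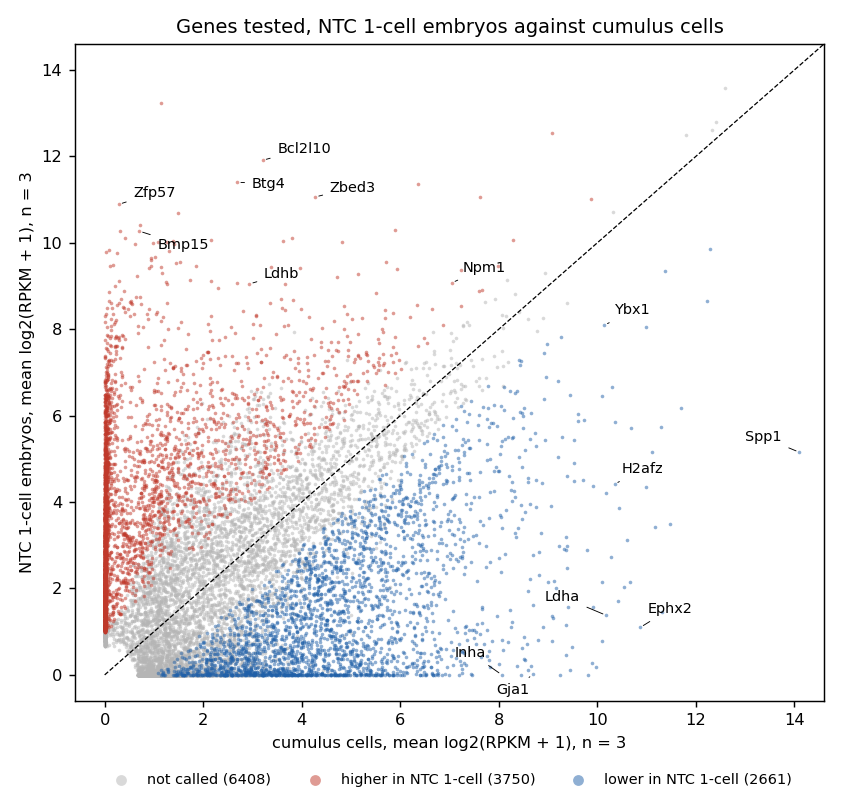
Mean level of each of the 12819 genes tested in CCs (horizontal axis) and in NTC 1-cell embryos (vertical axis), both as mean log2(RPKM + 1) over 3 libraries; red points are the 3750 genes called higher in NTC 1-cell embryos, blue points the 2661 called lower, grey points the 6408 not called, and the dashed line marks equal levels. Many called genes lie along an axis, near 0 in one group and high in the other.

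The genes with the largest positive differences were genes of the egg. Zfp57, which encodes a zinc finger protein that guards imprinted methylation, was at 1837, 1810 and 2055 RPKM in NTC 1-cell embryos and at 0.226, 0.242 and 0.193 RPKM in CCs. The groups were far apart, by 10.60 on the log2 scale (SE 0.19, adjusted p = 1.2e-05). Next came Klf17, a transcription factor of the oocyte and early embryo, at 1038 to 1189 RPKM against 0.277 to 0.435 RPKM (9.68 ± 0.20, SE). Bmp15 and Npm2 followed, with differences of 9.56 and 9.51, and then C87977, Khdc1b, Oog1, Oog4, Tcl1b1 and Btg4, at 9.34 to 8.71. Btg4, the adaptor that brings the CCR4-NOT deadenylase to maternal mRNA, reached 2751, 3067 and 2349 RPKM in NTC 1-cell embryos against 6.12 RPKM or less in CCs. The CC means of these 10 genes were 0.0116 to 0.201% of their NTC 1-cell means.

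Among the 24 oocyte markers tested, 22 were higher and 0 were lower in NTC 1-cell embryos by limma (23 and 0 at an unadjusted p below 0.05), with a median difference of 6.01, or 6.77 with genes listed at 0 in one group set at their bound against 3 reads per library. Figla and Sohlh2, transcription factors of early oocyte growth, did not pass: Figla was at 2.13, 1.43 and 0 RPKM and Sohlh2 at 0.376, 3.03 and 5.42 RPKM in NTC 1-cell embryos. Bcl2l10, an anti-apoptotic Bcl2 relative of the oocyte, had the highest level of the list, 4014, 4114 and 3477 RPKM, against 9.72, 7.49 and 7.71 RPKM in CCs. The difference was 8.70 (SE 0.17, adjusted p = 1.2e-05). Zp3, the zona pellucida protein that forms the egg coat, was at 59.9, 55.6 and 40.9 RPKM against 0.142, 0.12 and 0.168 RPKM (5.52 ± 0.26, SE). The NTC 1-cell sum of the list, 8986 to 9989 RPKM, stood beside 14066 to 32732 RPKM in in vivo 1-cell embryos and 13666 to 17601 RPKM in NTM 1-cell embryos.

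The promoters of 6 genes are shown because these genes were far apart between the groups and act at the contact of egg and cumulus: Zp3, Bmp15 and Gja4 from the egg, and Gja1, Inhba and Tnfaip6 from the CCs. Each sequence is the 250 bases before the RefSeq start in build GRCm38.p6, written 5′ to 3′ along the gene. Capitals mark the E-box CANNTG, a motif for basic helix-loop-helix factors such as Figla that reads alike on both strands. The positions are chr5:135979855-135980104 (plus strand) for Zp3, chrX:6320725-6320974 (minus strand) for Bmp15, chr4:127314040-127314289 (minus strand) for Gja4, chr10:56377050-56377299 (plus strand) for Gja1, chr13:16011601-16011850 (plus strand) for Inhba and chr2:52037863-52038112 (plus strand) for Tnfaip6.
Zp3: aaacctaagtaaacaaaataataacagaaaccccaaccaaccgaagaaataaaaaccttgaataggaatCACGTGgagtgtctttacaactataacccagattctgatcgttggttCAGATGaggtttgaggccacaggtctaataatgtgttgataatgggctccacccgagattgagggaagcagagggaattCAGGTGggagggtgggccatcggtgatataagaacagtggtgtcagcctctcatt
Bmp15: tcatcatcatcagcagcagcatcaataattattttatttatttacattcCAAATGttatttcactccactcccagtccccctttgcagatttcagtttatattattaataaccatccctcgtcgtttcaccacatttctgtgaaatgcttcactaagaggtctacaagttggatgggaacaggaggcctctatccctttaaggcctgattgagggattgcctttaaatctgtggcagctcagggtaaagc
Gja4: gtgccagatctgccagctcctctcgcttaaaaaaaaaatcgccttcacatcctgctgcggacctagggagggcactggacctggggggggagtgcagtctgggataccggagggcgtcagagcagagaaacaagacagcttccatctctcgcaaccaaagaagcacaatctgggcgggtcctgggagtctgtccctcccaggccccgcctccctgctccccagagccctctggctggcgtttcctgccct
Gja1: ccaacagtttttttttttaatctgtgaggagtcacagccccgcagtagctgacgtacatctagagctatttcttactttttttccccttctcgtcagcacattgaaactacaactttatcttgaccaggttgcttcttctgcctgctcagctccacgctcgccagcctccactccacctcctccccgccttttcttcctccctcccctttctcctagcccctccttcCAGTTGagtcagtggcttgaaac
Inhba: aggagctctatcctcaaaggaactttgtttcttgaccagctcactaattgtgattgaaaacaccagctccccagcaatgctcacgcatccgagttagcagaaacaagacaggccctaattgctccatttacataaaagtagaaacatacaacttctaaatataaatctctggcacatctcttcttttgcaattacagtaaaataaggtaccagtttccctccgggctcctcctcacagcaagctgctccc
Tnfaip6: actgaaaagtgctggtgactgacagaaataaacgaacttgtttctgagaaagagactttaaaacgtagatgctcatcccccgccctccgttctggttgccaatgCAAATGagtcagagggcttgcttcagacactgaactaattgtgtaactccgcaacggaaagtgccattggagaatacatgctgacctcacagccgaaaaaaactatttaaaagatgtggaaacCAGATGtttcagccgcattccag

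Zp3 held 3 E-boxes in this window, at 181, 134 and 55 bases before the start, Tnfaip6 held 2, Bmp15 and Gja1 held 1 each, and Gja4 and Inhba held 0. Among all 32851 RefSeq promoters of the same length, 66.2% held at least 1, with a median of 1. The Zp3 window held 5 CpG and the Bmp15 window 2, against a median of 6 over all promoters. A match describes these letters alone.

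The subcortical maternal complex, a protein assembly under the egg membrane that early cleavage needs, was represented by 7 tested genes, of which 7 were higher and 0 lower in NTC 1-cell embryos (the same counts at an unadjusted p below 0.05), with a median of 7.26. Nlrp4f was at 594 to 604 RPKM against 0.520 to 0.706 RPKM. Padi6, an enzyme of the egg's cytoplasmic lattices, was at 422, 444 and 389 RPKM against 0.213 to 0.287 RPKM, and Ooep at 324 to 408 RPKM against 0.0740 to 0.148 RPKM. Zbed3 had the highest level, 2086, 2123 and 2195 RPKM, and was also above the trace level in CCs, at 12.7 to 22.1 RPKM. Tle6 was the one member with a substantial CC level, 25.3, 53.9 and 11.9 RPKM against 82.0, 84.6 and 76.7 RPKM. Its difference of 1.63 (SE 0.53, adjusted p = 0.047) lost its call with a pseudocount of 0.1, with no filter on low levels, with median-ratio scaling and in a fit over all groups. Khdc3 was too low to be tested.

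Gene families that are tandemly repeated and transcribed in the egg were on the same side. All 37 tested members of the Oog, Omt2, Tcl1, Oas1, Nlrp and Fbxw families were higher in NTC 1-cell embryos and 0 were lower (the same counts at an unadjusted p below 0.05), with a median of 7.41. Oog1, Oog4 and Tcl1b1 were at 983 to 1056, 432 to 497 and 992 to 1073 RPKM, against 1.78 RPKM or less in every CC library. Members of these families are close copies that may share reads, so the level of a single copy is uncertain.

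Genes that store, mask or remove maternal mRNA were mostly on the egg side: 22 of 36 tested were higher (61.1%) and 2 lower (5.56%). Over all genes tested, 29.3% were higher and 20.8% lower. The median of the list was 3.20. After Btg4, the largest differences were those of Dazl, an RNA-binding protein of germ cells, at 413 to 528 RPKM against 0.237 to 0.409 RPKM (8.48 ± 0.23, SE), and of Zar1l. The latter was at 107, 110.1 and 109 RPKM in NTC 1-cell embryos and was listed at 0 in all CC libraries, which made it at least 1079-fold higher against a floor of 3 reads per library. Tob1, a relative of Btg4 found in somatic cells, was lower, at 2.94, 1.70 and 1.98 RPKM against 7.87, 6.00 and 22.9 RPKM (-1.85 ± 0.52, SE, adjusted p = 0.028). Cnot1 and Cnot2, subunits of the deadenylase itself, were not called, with differences of 1.14 and 0.91.

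Of 43 meiosis and cell cycle genes tested, 22 were higher (51.2%) and 4 lower (9.30%), beside 29.3% and 20.8% of all genes tested. The median of the list was 2.15 (2.17 at the bound). Wee2, an oocyte kinase that inhibits Cdk1, was at 208, 221 and 212 RPKM against 0.171 to 0.315 RPKM (7.45 ± 0.22, SE). Fbxo43 and Fbxo5, inhibitors of the anaphase-promoting complex, were at 82.5 to 116 and at 258 to 279 RPKM, with differences of 6.50 and 7.28. The lower genes included regulators of the G1 phase. Cdk4 was at 1.24 to 1.44 RPKM against 37.7 to 68.4 RPKM (-4.59 ± 0.32, SE), and the inhibitors Cdkn1a and Cdkn1b, which hold somatic cells in G1, differed by -3.65 and -2.36. The count of higher genes ranged from 17 to 30 when each library was left out in turn, and the count of 30 was that without CC replicate 1, the library with the high levels of Aurkb and Wee1.

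Growth factors, receptors and channels through which egg and cumulus communicate were described by role. Of 44 genes, 36 were tested, 13 were higher (36.1%) and 4 lower (11.1%), with a median of 1.11. Over all genes tested, 29.3% were higher and 20.8% lower, so the share of higher genes was not far from that of all genes. The count of lower genes on this list went to 9 without CC replicate 2 and to 2 without any 1 of the NTC 1-cell libraries. The oocyte factors that act on CCs were all on the egg side. Bmp15 was at 1357, 1111 and 1235 RPKM in NTC 1-cell embryos and at 0.770, 0.548 and 0.570 RPKM in CCs. Gdf9, its partner, was at 167, 131 and 116 RPKM against 2.24, 1.76 and 1.83 RPKM (5.55 ± 0.25, SE, adjusted p = 3.2e-05). Fgf8, which drives cumulus glycolysis together with Bmp15, was at 13.1, 8.46 and 8.64 RPKM and was listed at 0 in CCs, at least 151-fold higher against a floor of 3 reads per library. Jag1, a Notch ligand of the oocyte, was at 37.6, 53.1 and 41.3 RPKM against 0.0653 to 0.0873 RPKM (5.37 ± 0.26, SE). Its receptor Notch2 was on the other side, at 0.183, 0.495 and 0.185 RPKM against 2.44, 21.6 and 14.9 RPKM (-3.07 ± 0.73, SE, adjusted p = 0.016).

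Receptors for the oocyte factors were found on both sides. Tgfbr1, the type I receptor used by Gdf9, was lower in NTC 1-cell embryos, at 1.80, 5.51 and 1.83 RPKM against 38.9, 91.1 and 68.3 RPKM (-4.09 ± 0.49, SE, adjusted p = 0.0010). Bmpr1b, a type I receptor for Bmp15, was higher in NTC 1-cell embryos, at 33.9, 36.9 and 33.4 RPKM against 11.5, 5.16 and 10.4 RPKM (1.90 ± 0.34, SE, adjusted p = 0.0051). Bmpr2, the type II receptor that both ligands use, was at 13.5, 17.4 and 16.1 RPKM against 5.72, 4.78 and 19.9 RPKM and was not called (0.83, 95% interval -0.50 to 2.16). The type I receptors Bmpr1a, at 3.75, 5.17 and 3.53 RPKM against 11.2, 2.67 and 22.4 RPKM, and Acvr1, at 0.246 to 3.30 RPKM against 0 to 16.2 RPKM, also overlapped and were not called (adjusted p = 0.28 and 0.33). The same was true of Acvr2a, at 0.278 to 1.88 RPKM against 1.46 to 3.50 RPKM (adjusted p = 0.27), and Tgfbr2 was too low to be tested. The activin receptors Acvr1b and Acvr2b were higher, by 2.71 and 2.11, from 0.0359 RPKM or less in CCs. Smad3 and Smad4 were at 31.9 to 42.6 and 33.4 to 36.1 RPKM in NTC 1-cell embryos, while CC replicates ranged from 0.0338 to 29.3 and from 0.0767 to 37.6 RPKM, and neither was called (adjusted p = 0.081 and 0.24). Smad1, Smad2, Smad5 and Smad7 were not called either (adjusted p = 0.067, 0.12, 0.28 and 0.13).

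Kit, the receptor on the egg for the cumulus ligand Kitl, was at 26.4, 24.9 and 29.9 RPKM against 0.0142 to 0.0180 RPKM (4.78 ± 0.23, SE). Kitl itself was at 3.75, 2.36 and 1.24 RPKM in NTC 1-cell embryos and at 0.0139 RPKM or less in CCs (1.70 ± 0.36, SE, adjusted p = 0.0093). Igf1, a growth factor of granulosa cells, was at 0.00998 RPKM or less against 6.13, 2.84 and 28.6 RPKM (-3.21 ± 0.76, SE, adjusted p = 0.015). Egfr, the receptor that relays the ovulatory signal in CCs, was at 9.08, 8.94 and 9.64 RPKM against 2.30, 0 and 4.38 RPKM. Its difference of 1.97 (adjusted p = 0.046) lost its call with a pseudocount of 0.1, with no filter, under TPM and with a block for replicate number. Its ligands Areg and Ereg were at or near 0 in both groups. Amh, Amhr2, Fshr, Npr2, Btc, Fgfr1, Fgfr2, Igf1r and Igf2r varied among CC replicates and were not called, with adjusted p between 0.059 for Fgfr1 and 0.58 for Fshr. Fgfr3, Smad6, Smad9 and Lhcgr were too low to be tested. Gpr3 and Pde3a, through which the egg sets its own cAMP, were higher by 5.07 and 4.34.

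The connexins, the subunits of gap junctions, were on opposite sides. Gja4, the connexin of the egg membrane, was at 67.2, 63.3 and 59.5 RPKM in NTC 1-cell embryos and at 0.0476, 0.0188 and 0.0188 RPKM in CCs (5.97 ± 0.23, SE, adjusted p = 2.2e-05). Gja1, the connexin between CCs, was at 751, 269 and 343 RPKM in CCs and at 0, 0.0202 and 0 RPKM in NTC 1-cell embryos (-8.68 ± 0.43, SE, adjusted p = 3.7e-05). Every library of one group was above every library of the other for both genes, in opposite directions.

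**Figure D2:**
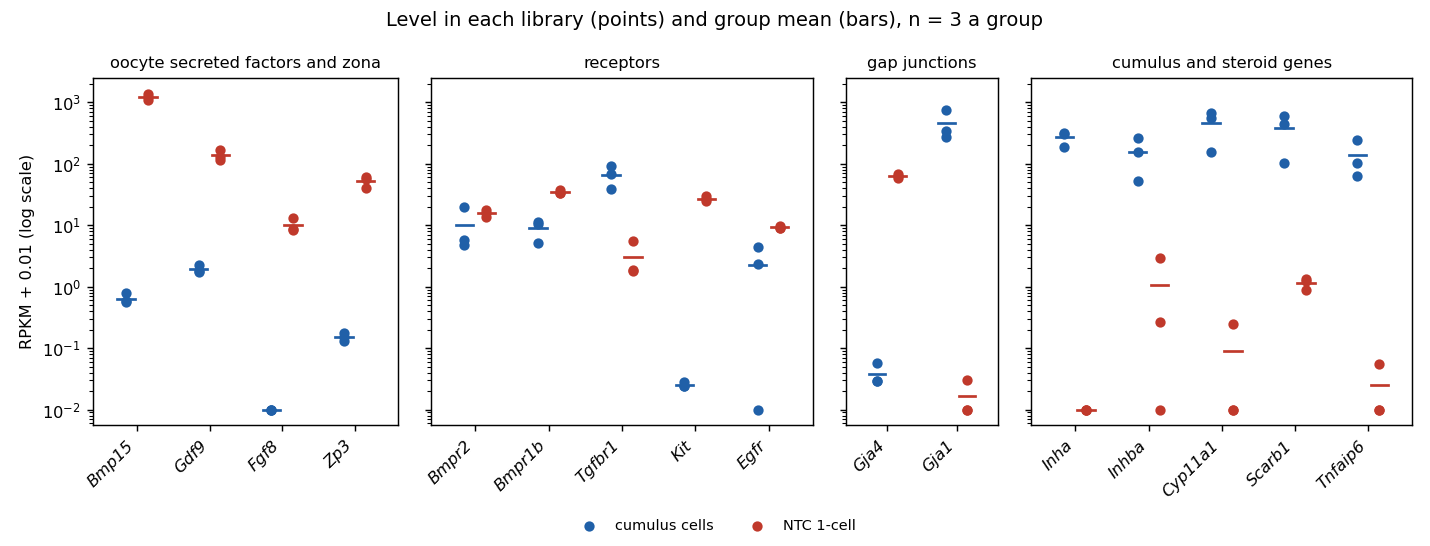
Level of 16 genes in each of the 3 CC libraries (blue) and 3 NTC 1-cell libraries (red), as RPKM + 0.01 on a log axis; points are libraries, bars are arithmetic group means, and points at the bottom of the axis are listed at 0. Bmp15, Gdf9, Fgf8, Zp3, Kit and Gja4 lie above CCs, the cumulus and steroid genes and Gja1 lie below, and Bmpr2 overlaps.

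On the cumulus side, 9 of 20 tested cumulus and granulosa markers were lower (45%) in NTC 1-cell embryos and 3 were higher (15%). Over all genes tested, 20.8% were lower and 29.3% higher. The median of the list was -2.41 (-2.60 at the bound). Inha, the inhibin alpha chain, was at 191, 319 and 310 RPKM in CCs and was listed at 0 in all NTC 1-cell libraries, so its level was at least 1690-fold lower against a floor of 3 reads per library. Inhba, the activin and inhibin beta A chain, was at 158, 52.2 and 262 RPKM against 0, 0.254 and 2.95 RPKM (-6.26 ± 0.79, SE, adjusted p = 0.0012). The 3 higher genes were Kitl, Bmpr1b and Cyp19a1. Cyp19a1, aromatase, was listed at 0 in every CC library and was at 3.62, 3.62 and 3.04 RPKM in NTC 1-cell embryos.

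Among genes of cumulus expansion, 13 of 21 were tested, 6 were lower (46.2%) and 2 higher (15.4%). Over all genes tested, 20.8% were lower and 29.3% higher. The median of the list was -2.70, and it became -4.78 with genes listed at 0 in one group set at their bound. Tnfaip6, which links hyaluronan chains of the expanded matrix, was at 105, 248 and 63.7 RPKM in CCs and at 0, 0 and 0.0449 RPKM in NTC 1-cell embryos (-6.88 ± 0.52, SE, adjusted p = 0.00017). Runx2, a transcription factor induced at ovulation, was at 66.6, 98.2 and 119.9 RPKM against 2.68, 1.29 and 0.599 RPKM (-5.29). Vcan, the versican core protein, differed by -5.14. The higher members were Egfr and Ptger4, and Ptger4 lost its call with no filter and with a block for replicate number.

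Steroid synthesis was carried by the CC libraries, with 8 of 17 tested genes lower (47.1%) in NTC 1-cell embryos and 2 higher (11.8%). Over all genes tested, 20.8% were lower and 29.3% higher. The median of the list was -4.86 (-5.16 at the bound). Cyp11a1, the enzyme that cuts the cholesterol side chain, was at 157, 662 and 557 RPKM in CCs and at 0, 0.235 and 0 RPKM in NTC 1-cell embryos (-8.50 ± 0.59, SE, adjusted p = 0.00012). Fdxr, ferredoxin reductase, was at 171 to 475 RPKM against 0.356 to 1.45 RPKM. Scarb1, the receptor that takes up cholesterol from lipoproteins, was at 103 to 597 RPKM against 0.885 to 1.34 RPKM. CC replicate 1 was the lowest of the 3 CC libraries for all 3 genes, and still above every NTC 1-cell library. Cyp19a1 and Hsd17b7 were the higher members.

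Cholesterol synthesis, which CCs carry out for the egg, followed the same direction in 16 of 23 tested genes, against 2 that were higher, with a median of -2.53 (-2.58 at the bound). Dhcr7, the last enzyme of the pathway, was at 51.6, 181 and 208 RPKM against 1.26 to 1.58 RPKM (-5.72 ± 0.57, SE), and Cyp51, another enzyme of the sterol branch, differed by -5.26. Hmgcs1, an early enzyme of the pathway, went the other way, at 220, 265 and 251 RPKM in NTC 1-cell embryos against 29.1, 86.2 and 46.2 RPKM (2.30 ± 0.40, SE, adjusted p = 0.0046).

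Glycolysis genes, another cumulus task, were lower in 17 of 23 tested cases and higher in 1, with a median of -4.24 (-4.32 at the bound). Ldha, the lactate dehydrogenase form of glycolytic cells, was at 1129, 1663 and 837 RPKM in CCs and at 5.97, 0 and 1.52 RPKM in NTC 1-cell embryos (-8.81 ± 0.73, SE, adjusted p = 0.00024). The lactate exporter Slc16a3 differed by -7.62 and the enzyme Pgam1 by -6.90. Ldhb was the 1 gene that was higher, at 652, 488 and 464 RPKM against 0.290, 39.0 and 7.75 RPKM (6.11 ± 1.21, SE, adjusted p = 0.0074). Its CC replicates were far apart, and the highest of them was still below every NTC 1-cell library.

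Genes of the somatic cell body and surface were lower as well. In the cytoskeleton list, 23 of 29 were lower and 0 higher (23 and 0 at an unadjusted p below 0.05), with a median of -5.47. Tagln2, an actin-bundling protein, was at 561 to 959 RPKM in CCs and at 1.19, 0 and 0.774 RPKM in NTC 1-cell embryos, and Lgals1 and S100a11 differed by -7.75 and -6.84. In the extracellular matrix list, 14 of 21 were lower and 1 higher, with a median of -2.43 (-3.56 at the bound). Sparc was at 143 to 251 RPKM against 0.524 to 2.54 RPKM, and Timp1 was at 76.3 to 98.6 RPKM and listed at 0 in NTC 1-cell embryos, at least 315-fold lower. The calls of Col1a1 and Dcn in this list rested on trace levels in CCs. Itga6, the integrin alpha 6 chain found on the egg, was higher, at 59.9, 120.3 and 81.4 RPKM against 0.0771, 0.0911 and 2.79 RPKM. Of 19 immediate early and stress genes, 12 were lower and 1 higher, with a median of -4.50. Ier3 and Fos were at 1421 to 2040 and 363 to 984 RPKM in CCs, against 2.94 to 4.28 and 0 to 5.42 RPKM. Klf4 was the higher member, at 8.63 to 15.3 RPKM against 0.211 RPKM or less.

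The 10 genes with the largest negative differences were not members of the lists above. Tmem86a, a membrane enzyme of lipid metabolism, was at 2499, 2213 and 3002 RPKM in CCs and at 0, 3.86 and 3.26 RPKM in NTC 1-cell embryos (-9.86 ± 0.64, SE, adjusted p = 9.3e-05). Gm2a, the activator protein for the breakdown of GM2 ganglioside, was at 1118, 707 and 895 RPKM in CCs and was listed at 0 in every NTC 1-cell library. Cd63, a tetraspanin of endosomes, and Ephx2, an epoxide hydrolase, differed by -9.78 and -9.77. Nrn1, Prss35 and Efemp1 differed by -9.61, -9.33 and -9.31. Sfrp4, a secreted Wnt antagonist of granulosa cells, was at 371, 528 and 1123 RPKM in CCs and was listed at 0 in every NTC 1-cell library. Spp1, osteopontin, had the highest mean log2 level in CCs of all called genes, 42435, 9071 and 14095 RPKM, and was at 67.7, 14.3 and 41.8 RPKM in NTC 1-cell embryos (-8.95 ± 0.77, SE, adjusted p = 0.00027). Rnh1 completed the set, with -8.92.

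The protein-making and energy machinery was also lower in relative terms. Cytosolic ribosomal protein genes were lower in 68 of 86 tested cases and higher in 3, with a median of -2.46 (-2.49 at the bound). Rps3 was at 141 to 217 RPKM in CCs and at 0.518 to 2.16 RPKM in NTC 1-cell embryos (-6.43 ± 0.37, SE), and Rps27a and Rpsa differed by -5.67 and -5.33. Rpl17 was higher, at 577, 457 and 401 RPKM against 192, 166 and 221 RPKM (1.3 on the log2 scale), and so were Rpl6l and Rpl39l, at 7.01 RPKM or less. Processed copies of ribosomal protein genes are numerous and may share reads with them. Nuclear genes of the respiratory chain were lower in 56 of 76 and higher in 2, with a median of -2.09 (-2.21 at the bound), and Uqcrc1, Cyc1 and Ndufa9 led with -6.22, -6.09 and -5.63. The 2 higher members were Cox6a2, at 8.46 to 10.3 RPKM and listed at 0 in CCs, and Cox6b2, which are tissue-restricted forms. Proteasome subunits were lower in 19 of 35 (54.3%) and higher in 0 by limma (22 and 2 at an unadjusted p below 0.05). Over all genes tested, 20.8% were lower and 29.3% higher. The median of the list was -1.10, and under TPM scaling 16 were lower and 1 higher.

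Genes of the mitochondrial genome did not share this direction: 6 of 14 were higher (42.9%) and 2 lower (14.3%), with a median of 0.84. Over all genes tested, 29.3% were higher and 20.8% lower. The count of higher mitochondrial genes was 3 without NTC 1-cell replicate 1 and 4 without replicate 2. The transcript of mt-Nd2 was at 8038, 4837 and 5383 RPKM against 596, 416 and 631 RPKM (3.46 ± 0.25, SE), and mt-Co2 and mt-Rnr1 differed by 2.71 and 2.13. The lower ones, mt-Atp8 and mt-Nd3, differed by -2.22 and -1.93. Translation initiation factors were split, with 10 of 52 higher (19.2%) and 17 lower (32.7%). Their median was -0.59, and the shares over all genes tested were 29.3% and 20.8%. Eif4e3 and Eif4e1b, cap-binding proteins, were at 191 to 262 and 49.2 to 56.7 RPKM in NTC 1-cell embryos against 0.202 RPKM or less in CCs. Eif4ebp1, which blocks Eif4e, was at 200.3 to 325 RPKM in CCs against 0.704 to 4.30 RPKM (-6.58 ± 0.51, SE), and Eif3l and Eif3g differed by -5.67 and -5.04.

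**Figure D3:**
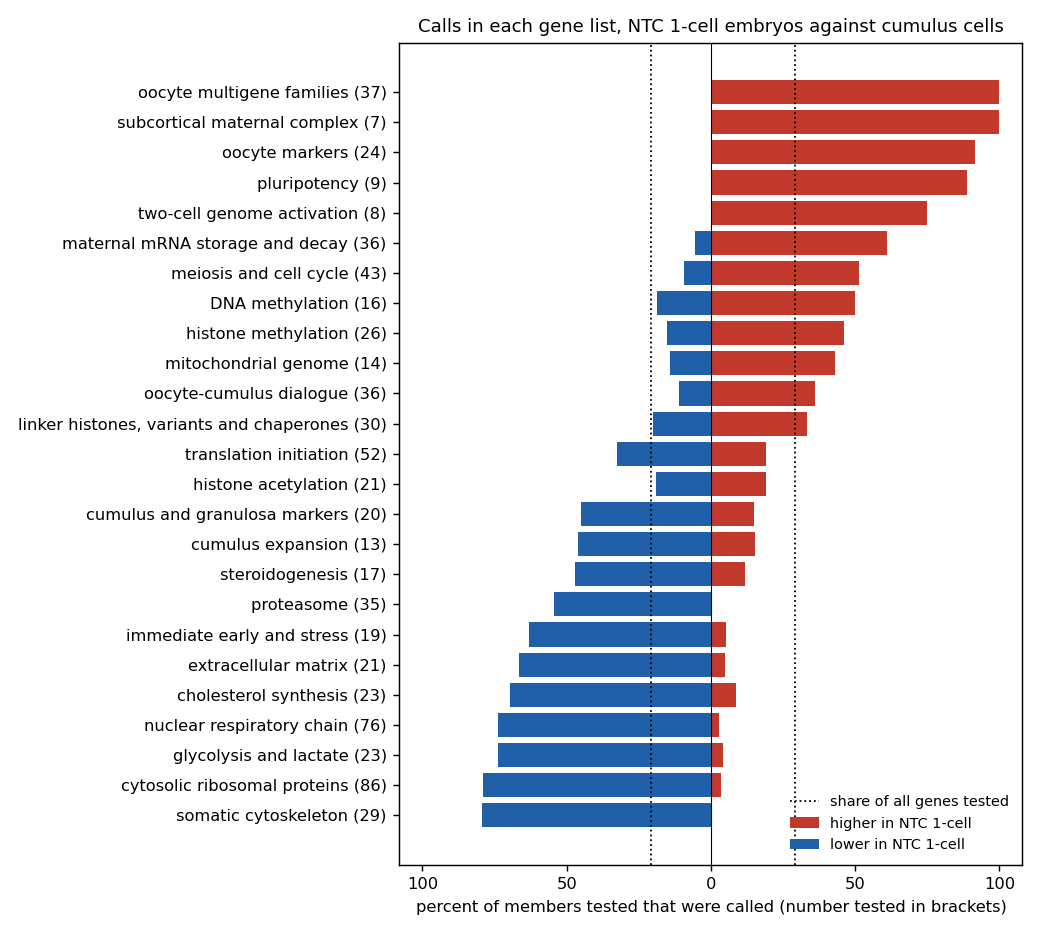
Share of the tested members of each gene list that were called higher (red, to the right) or lower (blue, to the left) in NTC 1-cell embryos than in CCs, in percent, with the number tested in brackets; dotted lines mark the shares over all 12819 genes tested, 29.3% higher and 20.8% lower. Egg lists extend to the right, up to 37 of 37, and the cytoskeleton, ribosomal, glycolysis and respiratory lists extend to the left.

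In 18 pairs of related genes, one is the form used or enriched in the egg and the other is expressed widely, and each pair was read as a unit. In 16 pairs the oocyte form was higher in NTC 1-cell embryos and in 0 it was lower. The remaining oocyte forms were Rec8, listed at 0 in both groups, and Stag3, at 0.394 to 2.61 RPKM against 0 in CCs (adjusted p = 0.051). The widely expressed relatives moved less uniformly: 6 were lower, 4 were higher and 8 were not called. The 6 pairs with opposite calls were H1foo and H1f0, Pabpc1l and Pabpc1, Ybx2 and Ybx1, Gja4 and Gja1, Ldhb and Ldha, and Btg4 and Btg1. The linker histone H1foo was at 94.5, 130.1 and 71.8 RPKM against 4.75, 3.50 and 4.30 RPKM, whereas H1f0 was at 22.3, 21.2 and 32.1 RPKM against 199, 151 and 245 RPKM. The poly(A)-binding protein Pabpc1l was at 24.1 to 30.6 RPKM against 0.00982 RPKM or less, whereas Pabpc1 was at 0.707 to 1.34 RPKM against 20.5 to 27.2 RPKM. For Ybx2 and Ybx1, which coat mRNA, the call was opposite but Ybx1 stayed above Ybx2 in NTC 1-cell embryos, at 244 to 288 RPKM against 60.9 to 99.6 RPKM.

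In 4 pairs both genes were higher: Npm2 and Npm1, Bcl2l10 and Bcl2l1, Kpna7 and Kpna2, and Fbxo43 and Fbxo5. Kpna2, an importin, was at 1103 to 1444 RPKM against 12.1 to 261 RPKM, above Kpna7 in both groups. Tet3, the dioxygenase of the zygote, was at 43.9, 58.5 and 53.7 RPKM against 0.184, 4.18 and 4.50 RPKM (4.03), and its relative Tet2 was not called. Pabpn1l, Eif4e1b, Aurkc, Wee2 and Smc1b were also higher (6.08, 5.73, 2.41, 7.45 and 3.25), whereas Pabpn1, Eif4e, Aurkb, Wee1 and Smc1a were not called. Rad21 and Stag2, the relatives of Rec8 and Stag3, were not called (adjusted p = 0.063 and 0.22). The order of the group means within a pair switched for 8 of 18 pairs. Relatives that varied among CC replicates, such as Aurkb and Wee1, were among those not called, and CC replicate 1 held their highest level.

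**Figure D4:**
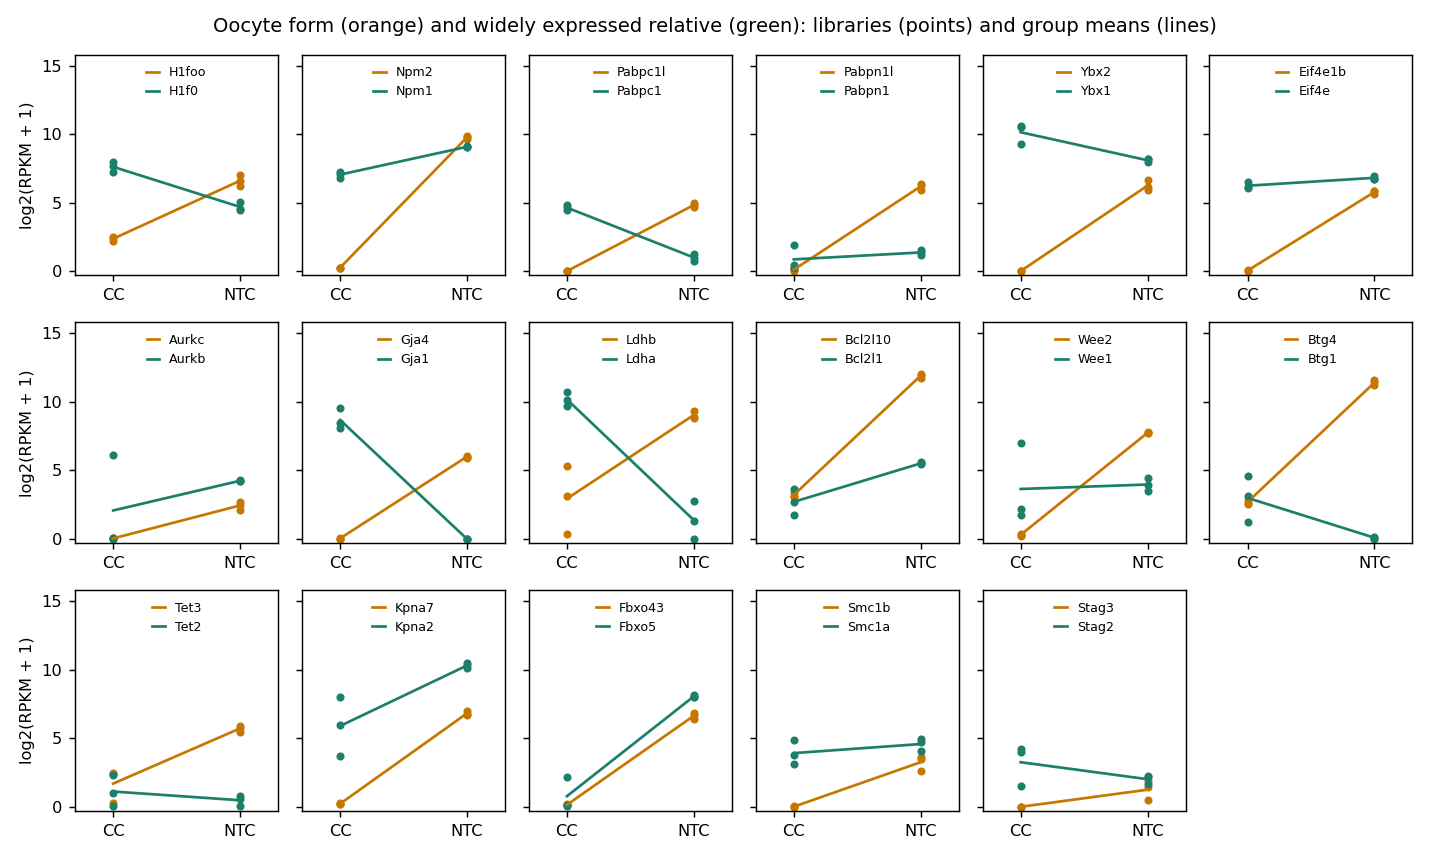
Levels of 17 pairs of an oocyte form (orange) and a widely expressed relative (green) in CCs and NTC 1-cell embryos, as log2(RPKM + 1); points are the 3 libraries of each group and lines join the group means of the log values. The lines cross for pairs such as Gja4 and Gja1 or Ldhb and Ldha, and both rise for Npm2 and Npm1.

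Chromatin genes were divided. In the DNA methylation list, 8 of 16 were higher (50%) and 3 lower (18.8%), beside 29.3% and 20.8% of all genes tested. The median of the list was 1.57 (1.64 at the bound). Beside Zfp57, Uhrf1, which recruits Dnmt1, was at 68.7 to 79.2 RPKM against 2.62, 0.0149 and 0.0372 RPKM (5.60), and Dppa3, which protects the maternal genome from demethylation, was at 25.8 to 29.2 RPKM against 0.0355 RPKM or less (4.81). Tdg, a glycosylase of active demethylation, was at 0.405, 0.0350 and 0 RPKM against 16.7, 17.6 and 16 RPKM (-3.97 ± 0.26, SE), and Trim28 and Uhrf2 differed by -2.24 and -1.99. Of 26 histone methylation genes, 12 were higher (46.2%) and 4 lower (15.4%), with a median of 0.96. Without CC replicate 1, 8 of these genes were lower. The polycomb subunits Suz12 and Ezh2 were at 358 to 431 and 97.0 to 121 RPKM, with differences of 5.25 and 5.16, and Suv39h2 differed by 5.50. Ehmt2, a methyltransferase for H3K9, was at 0, 0 and 0.405 RPKM against 10.6 to 13.7 RPKM (-3.53). The demethylases Kdm4b and Kdm5b were lower, at 1.04 RPKM or less against 5.82 to 19.9 RPKM (-3.33 ± 0.53, SE) and at 0.472 to 1.16 RPKM against 10.4 to 19.2 RPKM (-3.14 ± 0.33, SE). Kdm4a was at 4.17, 10.2 and 3.37 RPKM against 7.97, 0.0383 and 3.87 RPKM, overlapping and not called, and Kdm4d was too low to be tested.

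Histone acetylation genes were called in both directions, 4 of 21 higher and 4 lower beside 29.3% and 20.8% of all genes tested, with a median of -0.95 (-1.11 at the bound). The lower count was 2 without NTC 1-cell replicate 2 or 3 and 6 without CC replicate 2. Sirt1, Kat6b and Crebbp differed by 3.54, 3.02 and 2.81, and the deacetylases Hdac1, Hdac3 and Sirt2 by -4.16, -3.35 and -2.82. Among 30 linker histones, variants and chaperones, 10 were higher and 6 lower, with a median of 0.36, which is near the 29.3% higher and 20.8% lower of all genes tested. Npm2, the chaperone that remodels chromatin in the egg, was at 952, 785 and 867 RPKM against 0.188 to 0.191 RPKM. Hist1h1a was at 71.7, 77.4 and 100.2 RPKM and was listed at 0 in CCs, while Hist1h1c was at 0.380 to 0.523 RPKM against 48.7 to 285 RPKM (-6.73) and H2afz at 12.4 to 27.2 RPKM against 767 to 1852 RPKM (-5.94). Clustered histone genes are close copies and partly lack a poly(A) tail, so their levels are uncertain.

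Pluripotency genes were higher in 8 of 9 tested cases and lower in 0 (the same counts at an unadjusted p below 0.05), with a median of 3.50 (3.61 at the bound), though several were low. Dppa2, Sall4 and Lin28a were at 82.0 to 102, 36.3 to 40.2 and 14.4 to 17.9 RPKM in NTC 1-cell embryos, and at 0.246 RPKM or less in CCs. Sox2, Nanog, Tfcp2l1 and Utf1 were too low to be tested. Of 22 genes of 2-cell genome activation, 8 were tested, 6 were higher and 0 lower (the same counts at an unadjusted p below 0.05), with a median of 2.55 (2.85 at the bound), led by Sp110, at 99.4 to 102 RPKM against 0.0552 RPKM or less (6.64), and by Tcstv1 and Tcstv3.

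Genes abundant in CCs were also read at low levels in NT embryos. A set of 73 genes had a mean of at least 100 RPKM in CCs and no reads in any of the 3 in vivo 1-cell libraries; this set was chosen after the data had been seen. Of these, 34, 31 and 39 were above 0 in the 3 NTC 1-cell libraries, 47.5 ± 5.54% (SD, n = 3), against 10, 13 and 11 in the 3 NTM 1-cell libraries, 15.5 ± 2.09% (SD, n = 3). The groups did not overlap and differed by 32.0 percentage points, with an exact two-sided permutation p of 0.1, the smallest that 3 against 3 libraries allow. The summed level of the set was 0.164 to 0.299% of its CC level in NTC 1-cell embryos and 0.0242 to 0.0515% in NTM 1-cell embryos. A value above 0 can rest on fewer reads than the floor of 3 used elsewhere. With a cut at 1 RPKM, 17, 11 and 12 genes remained for NTC replicates 1 to 3, and 2, 5 and 2 for NTM. Of the set, 15 genes had reads in every NTC replicate and 18 in none, against 4 and 50 for NTM. Of 17 genes tested against in vivo embryos, 2 were called higher in NTC. NTC 1-cell libraries were not deeper than NTM 1-cell libraries, with 10118230 to 15929076 against 14158395 to 16507415 reads, but they held more genes above 0 in general, 14021 to 14270 against 12097 to 12346. The part of this in the result was not tested.

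Ier3 was at 4.28, 2.94 and 3.12 RPKM in NTC 1-cell embryos and listed at 0 in NTM 1-cell embryos. Bex4 was at 12.6, 4.73 and 1.19 RPKM and Ctsl, the lysosomal protease cathepsin L, at 2.61, 1.37 and 2.10 RPKM, both listed at 0 in NTM 1-cell embryos; these genes were chosen after their values were seen. Many of the 73 genes were also expressed in MEFs. For the 13 genes of the set below 1 RPKM in MEFs, 1, 5 and 5 were above 0 in NTC 1-cell embryos and 0, 1 and 0 in NTM 1-cell embryos. The same reading for MEF genes did not favour the NTM embryos: of 110 genes at 100 RPKM or more in MEFs and listed at 0 in vivo, 45, 35 and 42 were above 0 in NTC 1-cell embryos and 26, 17 and 24 in NTM 1-cell embryos. For the 32 of them below 1 RPKM in CCs, the numbers were 6, 6 and 7 against 5, 1 and 3.

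Beside in vivo 1-cell embryos, with which the NTC libraries were compared in a separate fit, 126 of 10834 genes (1.16%) were called. This count was 1524 without in vivo 1-cell replicate 1, the library that stood apart, 6 without replicate 2 and 1 without any single NTC 1-cell library. Of the 59 genes on the cumulus, expansion and steroid lists, 18 were tested there and 0 were called by limma (2 at an unadjusted p below 0.05). Of the 2661 genes lower in NTC 1-cell embryos than in CCs, 1643 were tested against in vivo embryos, 20 were higher and 2 lower in NTC, beside 107 (0.988%) higher and 19 (0.175%) lower over all genes tested. Both comparisons share the NTC libraries, so these counts are given side by side only.

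**Figure D5:**
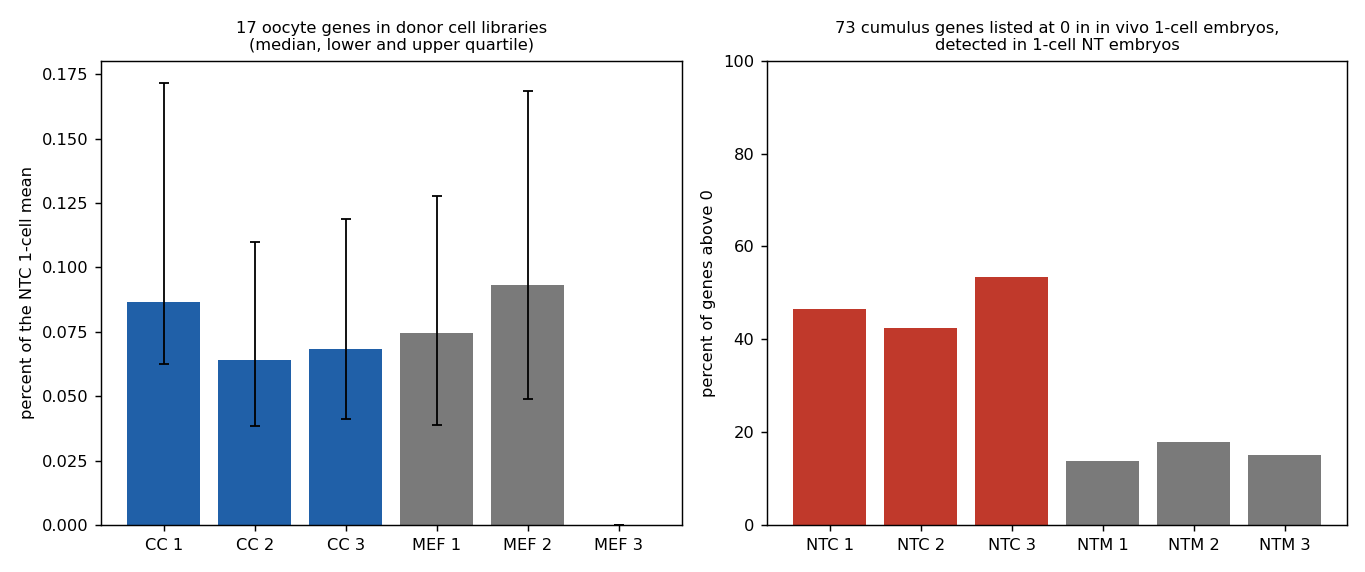
Left, level of 17 oocyte markers in each CC and MEF library as a percent of the NTC 1-cell mean (bars, median; whiskers, lower and upper quartile over genes); right, percent of 73 cumulus genes listed at 0 in in vivo 1-cell embryos that were above 0 in each NTC and NTM 1-cell library. Egg transcripts stand at 0.0642 to 0.0932% in all donor libraries but MEF replicate 3, and the NTC bars, 42.5 to 53.4%, lie above the NTM bars, 13.7 to 17.8%.

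The same comparison with the other donor, NTM 1-cell embryos against MEFs, shares no library with this one. There, 7216 of 13082 genes (55.2%) were called, 3299 (25.2%) higher and 3917 (29.9%) lower, with a median of -0.53. The difference between the NTC and the NTM comparison passed the threshold for 1753 of 13682 genes (12.8%), 1256 (9.18%) with a more positive value in the cumulus comparison and 497 (3.63%) with a more negative one, and the median over all genes was 0.35. Beside that share of 12.8% over all genes, among 37 genes of the multigene families, 1 had a positive and 5 a negative difference, and among 23 oocyte markers tested, 3 had a positive and 2 a negative one. Bmp15 was higher by 9.56 than in CCs and by 10.72 than in MEFs, with no call for the difference (adjusted p = 0.051). Cumulus and granulosa markers had 9 negative and 1 positive differences among 19 tested, and steroidogenesis had 8 negative and 0 positive among 16. Extracellular matrix genes had 17 positive and 2 negative differences among 29, and immediate early genes had 7 positive and 0 negative among 20. Inha differed by -8.06 from CCs and by -1.36 from MEFs (difference -6.70 ± 0.71, SE, adjusted p = 9.6e-05), and Gja1 by -8.68 and -5.09 (difference -3.59 ± 0.55, SE, adjusted p = 0.0013).

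Genes called in the 2 directions were described by gene type, exon length and promoter. The share of protein-coding genes was 85.4% among the 3750 higher genes, 95.9% among the 2661 lower genes and 88.4% among all genes tested. Median exon length was 4121 nt for higher and 3739 nt for lower genes, against 4038 nt overall. Promoters of higher genes had a median CpG ratio, observed over expected, of 0.72, against 0.77 for lower genes and for all. The ratio was 0.425 for oocyte markers and 0.107 for the multigene families, with promoter entries for 16 of 26 and 32 of 37 genes. A low ratio was not particular to egg lists, with 0.429 for cumulus expansion and 0.512 for steroidogenesis. Glycolysis and immediate early genes were at 0.696 and 0.755. An E-box was held by 93.8% of the oocyte marker entries and 96.9% of the multigene family entries, against 63.8% over all genes tested. For cumulus expansion and steroidogenesis it was 72.2% and 66.7%. These shares were read in a longer window than the 250 bases shown above, and in it 72.3% of all 32851 promoters held an E-box. Close copies make up much of the multigene family list, so its promoters are not independent. These features are given as description, without a test.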

How the data were processed

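Single embryos and donor cells were lysed, spike-in RNA was added, cDNA was amplified by PCR and libraries were sequenced as paired ends. The authors removed adapter, redundant and low-quality reads, aligned the rest with TopHat and Bowtie2 and counted reads with HTSeq according to the methods. The submitters' processing notes name Bowtie 0.12.2 and build mm8, and which build made the table could not be settled. The deposited table holds RPKM per gene and library, normalised by the authors to gene length and library size. The strand setting of the counting is not given in the sources used here, so overlapping and antisense genes are uncertain. There were no molecular identifiers, so read floors cover counting error only. Spike-in rows were not used.

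Reads on genes were reconstructed from the smallest steps of the values. Of 26134 genes with low values, 20346 gave whole reads at GENCODE M21 exon lengths within a tolerance of 0.02. The study used a count test on its own counts, whereas RPKM values are not counts. Groups, taken from the labels, were therefore compared with limma 3.58.1 (R 4.3.3) on log2(RPKM + 1), with a trended prior, for genes with a mean of at least 0.5 RPKM, and Benjamini-Hochberg adjustment over all genes tested. Fold changes on this scale understate the change of low genes. Genes were called at an adjusted p below 0.05 and an absolute log2 difference of at least 1. The 3 embryo replicates were not tied to CC replicates by the labels. In data simulated for NTC 1-cell embryos against CCs over 12749 genes, 81 of 100 genes changed 4-fold and 100 of 100 changed 16-fold were called, and 16 of 12549 unchanged ones. The simulation changed a small share of the genes, none of them low on average, and used the same dispersion for all genes. In the libraries themselves 50.0% of genes tested were called and some CC replicates lay far apart, so these rates need not hold there.

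The 32 gene lists and the genes to be named were chosen with earlier results of these data known. Named were the 10 largest called differences in each direction with at least 100 RPKM in the higher group and no overlap, excluding predicted gene models; up to 3 called members of each list in each direction, or any member of lists of 12 or fewer; every paralogue pair and every gene of the egg and cumulus dialogue; the 5 largest differences between donors in each direction; and Kdm4a, Kdm4b, Kdm4d and Kdm5b. Other genes named, such as Zp3, Figla, Sohlh2, Cnot1, Cnot2, Aurkb and Wee1 outside their pairs, were chosen after their values were seen. Promoters are RefSeq sequences of GRCm38.p6, and several named genes had no entry there. Alternatives were another pseudocount, no filter, TPM, median-ratio scaling, no mitochondrial genes, no fold threshold, a block for replicate number, all 60 libraries in a single fit, and leaving out each library. Symbols were matched for 27013 of 27238 identifiers, and 0 columns of the table lacked a sample. Not every gene under the rule is given values, and one result is not reported here.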

Additional observations from a re-analysis of the deposited data

Results flagged for a closer look

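A difference between the cumulus and the fibroblast comparison, tested as an interaction in limma, was found for 1753 genes and flagged these results. Among genes with the most positive values, Bgn differed by 0.55 between NTC 1-cell embryos and CCs and by -10.09 between NTM 1-cell embryos and MEFs, a difference of 10.64 (SE 0.47, adjusted p = 2.3e-07). The same held for Col1a1, with a difference of 10.23, Ccl2, with 10.16, Dcn, with 10.03, and Col3a1, with 9.90. These are matrix and chemokine genes of fibroblasts, and their levels in CCs were low.

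Among genes with the most negative values, Mrap, the accessory protein of the ACTH receptor, differed by -6.40 in the cumulus comparison and by 3.45 in the fibroblast comparison, a difference of -9.85 (SE 0.42, adjusted p = 2.3e-07). Sfrp4 followed with -8.82, Akr1cl with -8.80, Tpd52l1 with -8.69 and Efemp1 with -8.49. Groups of 3 are too small for the test of a single far value, which was not run.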

How the results depend on the processing

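None of the 160 named genes that were called changed sign under an alternative in which it was tested; among named genes not called, Kdr, Igf1r, Wee1 and Kdm4a did in 1 or more settings. Leaving out genes at a low CC share turned the balance of calls from 3750 higher and 2661 lower to 2103 and 2534, and the median from 0.16 to -0.37. The 6411 genes called in NTC 1-cell embryos against CCs became 6899 under TPM, 6439 under median-ratio scaling, 5999 with no filter, 6467 with a pseudocount of 0.1, 7986 in a fit over all groups and 5281 to 6986 when 1 library was left out. Of 197 named genes tested, 160 were called, 142 of them in every setting in which they were tested; the setting that leaves out genes at a low CC share does not test all of them. The comparison with in vivo 1-cell embryos, 126 genes, depended on the processing: 81 with a pseudocount of 0.1, 14 with no filter, 60 under median-ratio scaling, 71 under TPM, 1023 in a fit over all groups, 9 with the replicate block and 1 to 1524 with 1 library left out; the cause was not tested. Genes whose interval lay between -1 and 1, 169 in all, numbered 96 with a pseudocount of 0.1 and 79 to 226 with 1 library left out. The share of cumulus transcripts above 0 differed by 37.5 percentage points between NTC and NTM with a minimum of 200 RPKM, 27.3 with 50 RPKM and 29.0 to 34.8 with 1 library left out, settings chosen after seeing the data. The replicate number was not treated as a pairing in the main fit. Deviations of equal-numbered NTC and CC libraries correlated at 0.018 to 0.028, and each library correlated best with its own number. Whether equal numbers mark a shared origin was not tested, and 3 libraries a group are too few to settle it. With the replicate block, 5661 genes were called against CCs and 1474 differed between donors. Depth limits genes near 0, where 3 reads set the floor.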
